A study of Mus musculus with 3 samples.

Results

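Cnpy1, Smchd1, Gm36028, Rab3c, Pou2f1, Apmap, Osbpl9, Stbd1 and Dync1i1 are 9 of the 32285 genes counted in single-cell RNA-seq of the mouse vomeronasal organ (VNO). They were chosen from these same counts, because in the control they were higher in V2R cells than in V1R cells and because in V1R cells they were higher in the mutant at postnatal day 10 (P10) than in the P10 control. Both of these contrasts are described here without a test. The series held 3 libraries of whole VNO from male mice on a mixed C57 BL/6J and 129P2/OlaHsd background. The P10 control was OMPCre heterozygous. The P10 mutant and the 3-month mutant were OMPCreR26AP2e double heterozygous, so that Cre driven by the olfactory marker protein gene (Omp), which all 3 libraries carried, switched on a Rosa26 transgene for AP-2ε (gene Tfap2e) in neurons that express Omp. There was 1 library per group, without replicates, and no control of 3 months was analysed here, so genotype, age and library cannot be told apart for the 3-month mutant. The number of mice pooled in each library was not given in the sources used here, and the counts do not separate the transgene from the endogenous Tfap2e.

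Vomeronasal sensory neurons (VSNs) detect pheromones and fall into 2 types. Apical VSNs carry V1R receptors and the G protein subunit encoded by Gnai2, whereas basal VSNs carry V2R receptors and the subunit encoded by Gnao1. Tfap2e is a transcription factor of basal VSNs and is known to be needed for basal identity. It is normally absent from apical VSNs, and its expression from the Omp-driven transgene places it in the apical type.

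V1R cells were barcodes with 200 to 9000 genes, at most 10% mitochondrial UMIs and at least 5 vomeronasal receptor UMIs, of which at least 80% were of the Vmn1r family. V2R cells had at least 80% Vmn2r UMIs. There were 360, 144 and 139 V1R cells and 80, 46 and 88 V2R cells, in the order control, P10 mutant, 3-month mutant, which also holds below wherever 3 values are given. Near the limits, 35, 10 and 17 V1R cells had exactly 5 receptor UMIs and 27, 17 and 15 had a purity of 80 to 90%. A further 4, 5 and 1 cells with a purity of 70 to 80% stayed out. The filters kept 4795 of 8202, 3956 of 8864 and 6960 of 10293 barcodes, and 21 to 30 barcode sequences were shared between any pair of libraries.

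The markers fitted the gates unevenly. Gnai2 was at 1805, 1126 and 1141 UMIs per 1000000 UMIs (CPM) in V1R cells, and Gnao1 was at 489, 342 and 446 CPM in V2R cells. However, 7 of the 360 control V1R cells had more Gnao1 than Gnai2 UMIs, and so did 1 V1R cell of the P10 mutant and none at 3 months. Among V2R cells, Gnai2 exceeded Gnao1 in 9 of 80, 15 of 46 and 13 of 88. RNA of other cell types was present in every library. Summed sustentacular markers stood at 4889, 6538 and 5293 CPM in V1R cells, and gland markers at 1755, 29.9 and 2681 CPM. Over 1% of UMIs came from the 44 markers of other cell types in 96 (26.7%), 35 (24.3%) and 63 (45.3%) of the V1R cells. Values are therefore also given for receptor-rich cells, with at least 20 receptor UMIs and at most 1% of UMIs from those markers. These were 195, 83 and 51 V1R cells and 44, 23 and 35 V2R cells.

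All 9 genes were protein coding. In GENCODE M21 (GRCm38), Cnpy1 lay on chromosome 5 from 28200819 to 28245806, Smchd1 on chromosome 17 from 71344489 to 71475343, Gm36028 on chromosome 16 from 37850913 to 37861146 and Rab3c on chromosome 13 from 110054187 to 110280996, all on the minus strand. Pou2f1 (chromosome 1, 165865154 to 166002678), Apmap (chromosome 2, 150583080 to 150608567) and Osbpl9 (chromosome 4, 109061145 to 109202272) were also on the minus strand. Stbd1 (chromosome 5, 92603041 to 92606579) and Dync1i1 (chromosome 6, 5725639 to 6028039) were on the plus strand. Exons of Pou2f1, Apmap, Osbpl9 and Dync1i1 overlap those of Cd247, Gm14123, Nrd1 and 1700019G24Rik on the opposite strand, which were counted too.

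AP-2 proteins bind palindromic sites, and the promoters of the 9 genes were searched for the letters of such a site. The RefSeq table (GRCm38.p6) gave 13 promoters for the 9 genes, each from 250 bases before to 50 bases after a start site. GCCNNNGGC was found in 4 of the 13, belonging to Pou2f1, Osbpl9 and Dync1i1, and in 16.6% of 32851 promoters of the same length. The same palindrome with 1 more base between GCC and GGC was found in 3 of the 13, belonging to Pou2f1, Cnpy1 and Smchd1, and in 14.8% of all promoters. The octamer ATGCAAAT, the letters that Pou2f1 protein binds, was in none of them and in 1.74% of all promoters. Both strands were searched for each motif. Member promoters had a median GC content of 56% and all promoters 52.7%. The sequences below are shown because Smchd1, Cnpy1, Gm36028 and Rab3c had the largest V1R differences at P10, and because Pou2f1, Osbpl9 and Dync1i1 hold the shorter motif. Capitals mark the matches, and those of Pou2f1 adjoin.
Smchd1, chr17:71475294-71475593, minus strand: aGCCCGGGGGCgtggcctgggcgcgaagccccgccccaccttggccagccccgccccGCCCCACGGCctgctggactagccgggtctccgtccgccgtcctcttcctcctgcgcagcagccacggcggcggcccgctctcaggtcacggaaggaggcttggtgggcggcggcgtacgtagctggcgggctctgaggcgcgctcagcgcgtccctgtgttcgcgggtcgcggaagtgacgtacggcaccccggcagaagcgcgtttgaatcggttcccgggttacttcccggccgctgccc
Cnpy1, chr5:28210119-28210418, minus strand: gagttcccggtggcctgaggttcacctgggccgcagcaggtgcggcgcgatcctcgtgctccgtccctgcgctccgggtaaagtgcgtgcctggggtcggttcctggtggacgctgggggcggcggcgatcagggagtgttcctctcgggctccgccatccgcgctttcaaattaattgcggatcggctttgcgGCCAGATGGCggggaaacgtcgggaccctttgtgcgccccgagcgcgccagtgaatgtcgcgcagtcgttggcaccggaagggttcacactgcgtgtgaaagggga
Pou2f1, chr1:166002585-166002884, minus strand: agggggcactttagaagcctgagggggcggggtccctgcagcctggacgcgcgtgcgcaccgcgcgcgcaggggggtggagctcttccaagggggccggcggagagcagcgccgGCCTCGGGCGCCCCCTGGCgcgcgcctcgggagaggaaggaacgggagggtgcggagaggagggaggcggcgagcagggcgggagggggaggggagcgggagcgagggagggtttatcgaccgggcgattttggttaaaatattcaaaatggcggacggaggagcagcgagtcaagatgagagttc
Osbpl9, chr4:109202223-109202522, minus strand: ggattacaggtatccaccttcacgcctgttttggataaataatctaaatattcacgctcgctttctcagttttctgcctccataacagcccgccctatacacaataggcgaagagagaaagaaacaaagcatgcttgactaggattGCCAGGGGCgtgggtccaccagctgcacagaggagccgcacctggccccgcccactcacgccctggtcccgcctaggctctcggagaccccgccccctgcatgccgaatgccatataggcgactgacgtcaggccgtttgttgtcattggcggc
Dync1i1, chr6:5725389-5725688, plus strand: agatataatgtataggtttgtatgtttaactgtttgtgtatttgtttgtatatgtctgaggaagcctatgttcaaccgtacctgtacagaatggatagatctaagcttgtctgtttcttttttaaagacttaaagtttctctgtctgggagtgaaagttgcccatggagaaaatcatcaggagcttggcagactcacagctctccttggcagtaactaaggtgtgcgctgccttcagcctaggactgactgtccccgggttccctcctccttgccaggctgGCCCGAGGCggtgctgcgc
Gm36028, chr16:37861141-37861440, minus strand: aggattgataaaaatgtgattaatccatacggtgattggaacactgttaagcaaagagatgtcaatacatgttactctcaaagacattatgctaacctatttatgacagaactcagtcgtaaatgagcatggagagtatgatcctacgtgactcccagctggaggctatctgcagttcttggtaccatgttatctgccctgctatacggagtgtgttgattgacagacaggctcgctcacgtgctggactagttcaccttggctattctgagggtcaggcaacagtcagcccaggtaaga
Rab3c, chr13:110280157-110280456, minus strand: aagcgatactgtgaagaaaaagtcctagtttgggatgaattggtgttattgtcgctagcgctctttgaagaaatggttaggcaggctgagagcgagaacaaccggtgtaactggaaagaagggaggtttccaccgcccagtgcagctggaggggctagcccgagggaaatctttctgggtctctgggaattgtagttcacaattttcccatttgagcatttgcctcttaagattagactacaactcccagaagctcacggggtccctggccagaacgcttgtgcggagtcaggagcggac
Of the 4 genes with the largest V1R differences at P10, Smchd1 and Cnpy1 thus held the longer-spaced motif, Cnpy1 at the second of its start sites, and Gm36028 and Rab3c held none of the 3 motifs. A match is a string of letters and not a binding site.

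Tfap2e itself was at 7.25 CPM (95% interval 5.46 to 9.44) in V1R cells of the P10 control, 343 CPM (325 to 361) in the mutant of that age and 168 CPM (153 to 184) at 3 months. Levels here are pooled over the cells of a library, and all intervals (exact Poisson for levels, exact binomial for ratios and shares) cover counting error only. In V2R cells Tfap2e was at 129, 354 and 202 CPM. The V1R level of the P10 mutant was thus 2.66-fold (2.29 to 3.11) that of control V2R cells, and the 3-month V1R level was 1.30-fold (1.10 to 1.55). Tfap2e UMIs were found in 12 of 360, 111 of 144 and 74 of 139 V1R cells, and 28 of the 55 control UMIs lay in the 7 V1R cells with more Gnao1 than Gnai2. Immune cells, which should lack the gene, held Tfap2e UMIs in 0.426%, 13.9% and 8.15% of cells (median depth 8947, 8750 and 5945 UMIs, against 16359.5, 24501.5 and 13518 UMIs in V1R cells). Stromal cells, picked by collagen UMIs, held them in 0.481%, 24.2% and 9.29% of cells, at 1.46, 55.0 and 13.1 CPM. All kept barcodes of the P10 mutant held 8708 Tfap2e UMIs, of which 1434 lay in V1R cells and 387 in V2R cells. The source of the UMIs in other cells was not tested.

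In V1R cells all 9 genes stood higher in the P10 mutant than in the P10 control, as the choice of the genes required, and 4 of the 9 were at least 2-fold higher, where 2.91% of the 13369 genes with at least 20 UMIs over both pools were. Among receptor-rich cells 6 of the 9 were, against 2.17% of genes. These counts are read against the background only as a description. The size of the difference ranged from 5.27-fold for Gm36028 to 1.26-fold for Apmap. Over all V1R cells the 9 genes fell into 3 patterns, described in turn. Gm36028 and Rab3c stood above the control in the V1R pools of both mutants. Smchd1 and Cnpy1 stood clearly above it in that of the P10 mutant alone, which for Cnpy1 depended on the control cells used. Osbpl9, Pou2f1, Dync1i1, Stbd1 and Apmap had smaller differences.

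**Figure D1:**
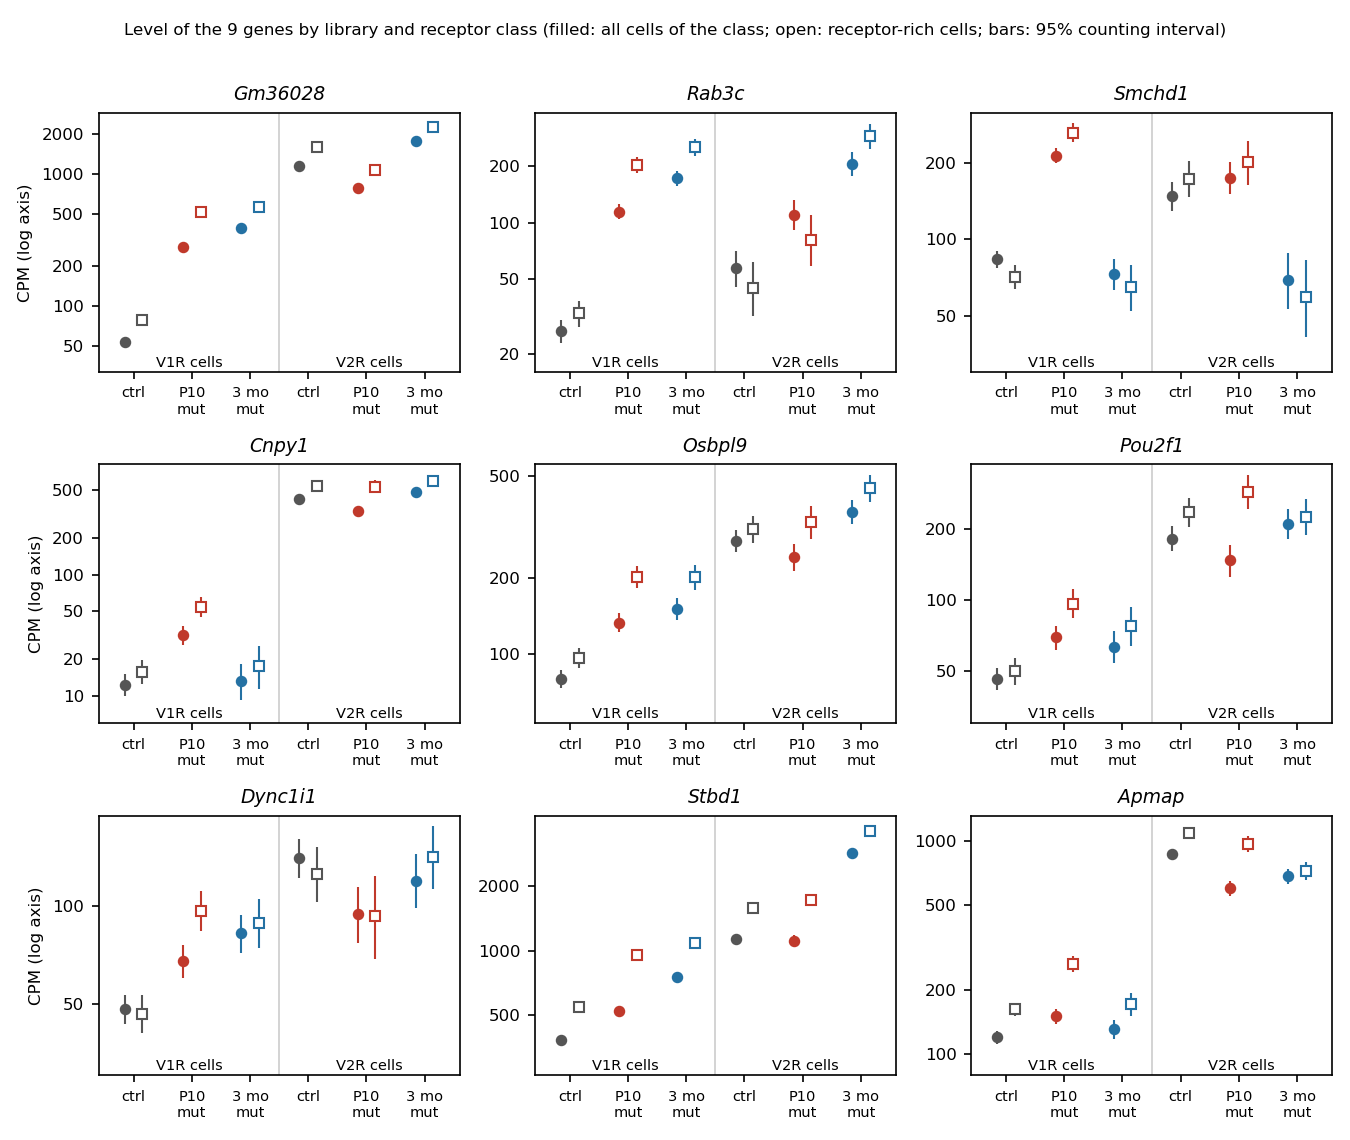
Pooled level of each of the 9 genes in V1R and V2R cells of the 3 libraries, in CPM on a log axis, with filled circles for all cells of a class, open squares for receptor-rich cells and bars for the 95% counting interval. Gm36028 and Rab3c stood above the control in V1R cells of both mutants. Set against these control pools, Smchd1 and Cnpy1 did so clearly in the P10 mutant only.

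Gm36028, a predicted gene with no role given in the sources used here, had the largest difference. It was at 53.4 CPM (48.3 to 58.8) in V1R cells of the P10 control, 281 CPM (265 to 298) in the mutant of that age and 388 CPM (364 to 412) at 3 months. The P10 mutant was 5.27-fold (4.70 to 5.91) above the control. Both mutants were well above the control, and the 3-month mutant was 1.38-fold (1.27 to 1.50) above the P10 mutant. In V1R cells with at most 5% mitochondrial UMIs that last order turned, and the 3-month level was 0.852-fold (0.751 to 0.964) that of the P10 mutant. Control V2R cells had 1154 CPM, so V1R cells of the P10 mutant reached 0.244-fold (0.226 to 0.263) the control basal level and those of the 3-month mutant 0.336-fold (0.310 to 0.363). In receptor-rich V1R cells the levels were 78.1, 515 and 566 CPM.

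Rab3c, a small GTPase of synaptic vesicle exocytosis, followed the same order. Its V1R level was 26.5 CPM (23.0 to 30.4) in the control, 114 CPM (104 to 125) in the mutant of that age and 173 CPM (157 to 189) at 3 months, and the P10 mutant was 4.32-fold (3.65 to 5.11) above the control. Unlike Gm36028, Rab3c had a low level in control V2R cells, at 57.3 CPM (45.7 to 70.9). V1R cells of the P10 mutant and the 3-month mutant therefore lay 2.00-fold (1.58 to 2.55) and 3.01-fold (2.38 to 3.85) above control basal cells. The name of a basal gene rested on little here: among receptor-rich control cells the V2R level was 1.37-fold (0.934 to 1.96) the V1R level, and that interval includes 1. Rab3c was also the member with the largest P10 ratio in V2R cells, which were at 110 CPM in the P10 mutant and 206 CPM in the 3-month mutant. A single V2R cell held 25.8% of its UMIs at P10 and 26.8% at 3 months, and the mutant levels without those cells were 85.2 and 155 CPM.

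Smchd1 encodes a noncanonical SMC protein of X inactivation and imprinted silencing. It was at 83.6 CPM (77.2 to 90.3) in V1R cells of the P10 control, 214 CPM (200 to 229) in the mutant of that age and 73.1 CPM (63.2 to 84.1) at 3 months. The P10 mutant was 2.56-fold (2.31 to 2.84) above the control, and the 3-month mutant was 0.341-fold (0.291 to 0.399) the P10 mutant, close to the control. Its V2R levels were 148, 175 and 69.4 CPM, so V2R cells at 3 months were also low. V1R cells of the P10 mutant stood 1.45-fold (1.25 to 1.69) above control V2R cells. Smchd1 is no VSN-restricted gene: immune cells had 144, 148 and 127 CPM, and cells with Gap43 and Stmn2 UMIs but fewer than 5 receptor UMIs, which are less mature neurons by these markers, had 394, 398 and 251 CPM.

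Cnpy1, a canopy family member of the endoplasmic reticulum linked to FGF signalling, had the widest gap between the types. It was at 12.4 CPM (10.0 to 15.2) in V1R cells of the P10 control, 31.6 CPM (26.4 to 37.4) in the mutant of that age and 13.2 CPM (9.18 to 18.3) at 3 months, and its V2R levels were 423, 333 and 476 CPM. The P10 difference in V1R cells was 2.55-fold (1.94 to 3.36), and it brought the V1R level to 0.0747-fold (0.0614 to 0.0902) that of control V2R cells. At 3 months the V1R level was 0.418-fold (0.279 to 0.610) that of the P10 mutant. In the control, 36 of the 94 Cnpy1 UMIs lay in the 7 V1R cells with more Gnao1 than Gnai2. Without cells of that kind Cnpy1 stood at 7.77 CPM in control V1R cells and at 29.0 CPM in P10 mutant ones, a 3.73-fold difference (2.71 to 5.20). The 3-month mutant had 0 V1R cells with more Gnao1 than Gnai2. Its 13.2 CPM thus lay near the level of the full control pool but above the 7.77 CPM of the restricted one.

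The other 5 genes differed less. Osbpl9, a lipid transfer protein of the oxysterol-binding family, was at 79.6, 133 and 150 CPM in V1R cells, and Pou2f1, the octamer-binding transcription factor Oct1, was at 46.5, 69.6 and 63.7 CPM. Dync1i1, a neuronal intermediate chain of the dynein motor, was at 48.1, 67.4 and 82.1 CPM. Stbd1, which binds glycogen, was the most abundant member in V1R cells, at 384, 525 and 756 CPM. Apmap, a membrane protein named from adipocytes, was at 119, 150 and 130 CPM. In all 5 the control was lowest, and the P10 ratios were 1.67 (1.49 to 1.88) for Osbpl9, 1.50 (1.28 to 1.75) for Pou2f1, 1.40 (1.20 to 1.64) for Dync1i1, 1.37 (1.30 to 1.45) for Stbd1 and 1.26 (1.13 to 1.39) for Apmap. Control V2R levels were 278 CPM for Osbpl9, 182 for Pou2f1, 140 for Dync1i1, 1138 for Stbd1 and 867 for Apmap, and V1R cells of the P10 mutant lay below each of them, from 0.173-fold for Apmap to 0.482-fold for Dync1i1.

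**Figure D2:**
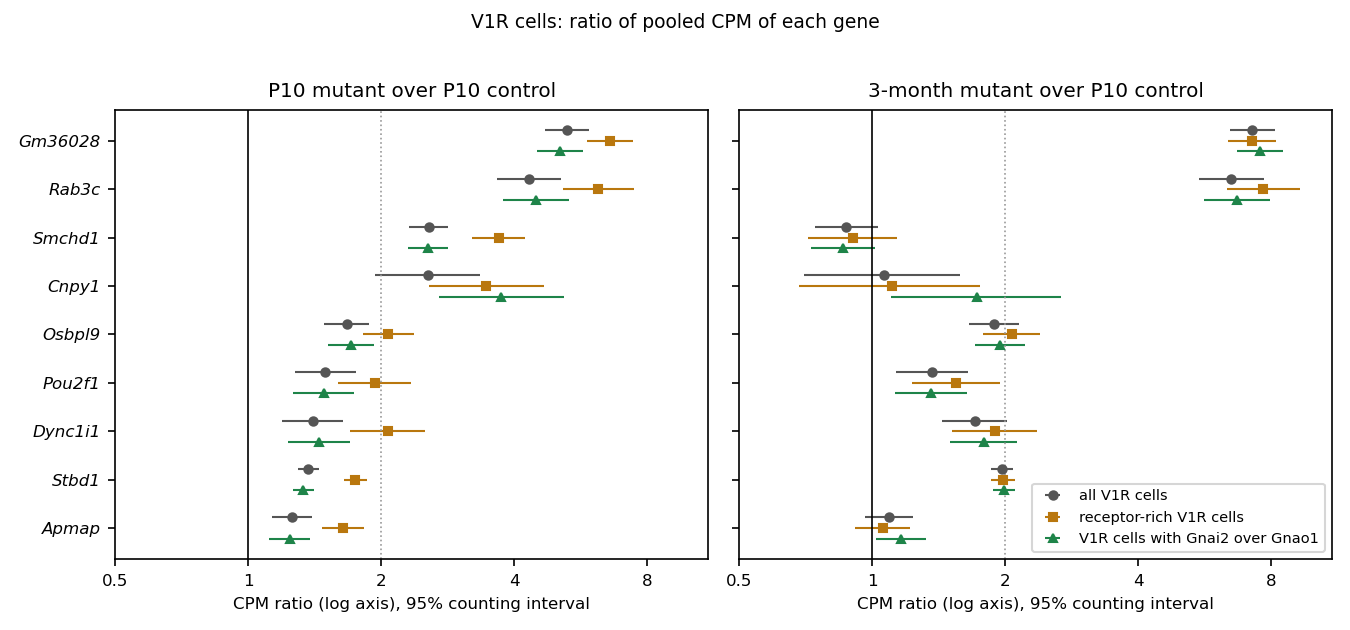
Ratio of pooled CPM in V1R cells on a log axis, for the P10 mutant (left) and the 3-month mutant (right) over the P10 control, in all V1R cells, receptor-rich V1R cells and V1R cells with more Gnai2 than Gnao1 UMIs, with 95% counting intervals. All 9 genes lay above 1 at P10, from 1.26 for Apmap to 5.27 for Gm36028, and at 3 months Smchd1 lay at 0.875 and Cnpy1 at 1.06.

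In receptor-rich cells the P10 ratios were 6.59 for Gm36028, 6.20 for Rab3c, 3.69 for Smchd1 and 3.45 for Cnpy1, followed by 2.08 for Osbpl9, 2.07 for Dync1i1, 1.93 for Pou2f1, 1.75 for Stbd1 and 1.64 for Apmap. All 9 were larger than over all V1R cells. In V1R cells with more Gnai2 than Gnao1 UMIs the 4 genes at least 2-fold higher were again Gm36028, Rab3c, Cnpy1 and Smchd1, against 2.96% of 13327 genes. Barcodes above 10% mitochondrial UMIs, which the gate left out, gave another picture: over 172 such V1R cells of the control and 106 of the P10 mutant, 1 of the 9 genes was at least 2-fold higher (Gm36028, 3.06-fold, 2.06 to 4.68), where 3.57% of genes were.

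The 3-month mutant was compared with the P10 mutant, although age and library cannot be told apart in it. Smchd1 and Cnpy1 were at most 0.5-fold, which makes 2 of 9, where 7.48% of 12462 genes were. Among receptor-rich cells the same 2 of 9 were (Smchd1 0.246-fold, Cnpy1 0.322-fold), against 9.14% of genes. Of the others, Rab3c was 1.51-fold and Stbd1 1.44-fold higher at 3 months, and Pou2f1 (0.915-fold, 0.752 to 1.11) and Osbpl9 (1.13-fold, 0.991 to 1.29) had intervals that include 1. In cells with at most 5% mitochondrial UMIs, however, 0 of the 9 genes were higher at 3 months, and the median log2 ratio was -0.39 over the 9 and -0.25 over all genes. Tfap2e was 0.490-fold, and Gap43, a marker of less mature neurons, 0.177-fold. The part of the lower Gap43 level in these differences was not tested.

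Set against the P10 control, whose cells also entered the contrast that chose the genes, the 3-month V1R cells had 2 of the 9 genes at least 2-fold higher, Gm36028 (7.26-fold, 6.47 to 8.17) and Rab3c (6.51-fold, 5.51 to 7.73), where 7.20% of genes were. Stbd1 lay at 1.97-fold, Osbpl9 at 1.89-fold, Dync1i1 at 1.71-fold and Pou2f1 at 1.37-fold. Apmap (1.09-fold, 0.962 to 1.24), Cnpy1 (1.06-fold, 0.700 to 1.58) and Smchd1 (0.875-fold, 0.741 to 1.03) had intervals that include 1. In receptor-rich cells Osbpl9 joined the first 2 at 2.07-fold, so that 3 of the 9 were, against 7.20% of genes again.

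V2R cells express Tfap2e in the control as well. At P10, 0 of the 9 genes were at least 2-fold higher in V2R cells of the mutant, where 4.58% of 9720 genes were. At that share fewer than 1 of 9 genes would be, so the count says little about them. It was 1 in V2R cells with at most 5% mitochondrial UMIs (Rab3c, 2.01-fold), where 2.39% of genes were, and 2 in those with more Omp than Gap43 UMIs (Rab3c at 3.67-fold and Pou2f1 at 4.09-fold, the latter from 51 UMIs in 15 cells against 11 in 13), where 6.51% were. In the last set 1 Vmn2r37 cell held 34 of the 51 Pou2f1 UMIs. The 2 mutant cells there with most Rab3c (31 and 17 UMIs) had 125 and 86 Gnai2 UMIs against 1 and 2 of Gnao1. Over all V2R cells Rab3c was highest at 1.91-fold (1.44 to 2.56) and Smchd1 was at 1.18-fold (0.966 to 1.44). Gm36028 (0.683-fold, 0.629 to 0.742), Apmap (0.689-fold) and Dync1i1 (0.674-fold) were lower. Gnai2 was 3.44-fold and Meis2, an apical transcription factor, 3.16-fold higher in the same V2R cells, in which cells with more Gnai2 than Gnao1 made up 32.6% against 11.3% in the control. When V2R cells were limited to those with more Gnao1 than Gnai2 UMIs, Gm36028 was at 0.958-fold (0.875 to 1.05), Apmap at 1.00-fold (0.906 to 1.11), Dync1i1 at 0.890-fold (0.675 to 1.17) and Rab3c at 1.39-fold (0.955 to 2.00). In those cells Tfap2e was 3.29-fold higher (2.72 to 3.99), at 504 CPM against 153 CPM in the control. The part of the mixed V2R gate in the full V2R ratios was not tested beyond this restriction.

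V2R cells of the mutants also differed between the ages. Gm36028 was at 789 CPM in V2R cells of the P10 mutant and at 1785 CPM at 3 months, a ratio of 2.26 (2.08 to 2.46), and Stbd1 was at 1116 and 2873 CPM, 2.57-fold (2.40 to 2.76). Rab3c was 1.88-fold (1.49 to 2.38) and Cnpy1 1.43-fold (1.24 to 1.65). Smchd1 was lower in V2R cells as it was in V1R cells, at 0.398-fold (0.295 to 0.530).

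The basal character of the genes was examined within each library, where V1R and V2R cells share the library. In the control 8 of the 9 genes were at least 2-fold higher in V2R than in V1R cells, where 4.78% of genes were. The ratios ran from 34.1 (27.4 to 42.9) for Cnpy1 and 21.6 (19.4 to 24.2) for Gm36028 through 7.26 for Apmap, 3.91 for Pou2f1, 3.49 for Osbpl9, 2.97 for Stbd1, 2.91 for Dync1i1 and 2.16 for Rab3c to 1.77 (1.51 to 2.07) for Smchd1. Among receptor-rich cells 8 of the 9 were as well, against 4.30% of genes, with Smchd1 at 2.43 and Rab3c at 1.37. Both sets of cells took part in choosing the genes.

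**Figure D3:**
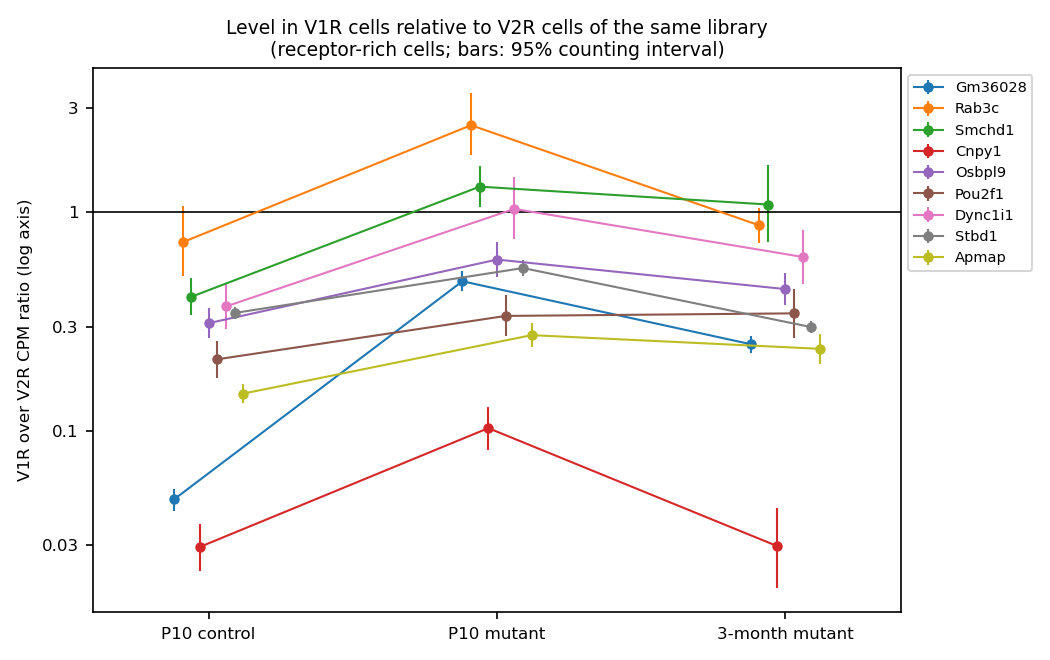
Level of each gene in receptor-rich V1R cells divided by that in receptor-rich V2R cells of the same library, on a log axis with 95% counting intervals. From the control to the P10 mutant Gm36028 went from 0.0486 to 0.484 and Rab3c from 0.730 to 2.51, and Cnpy1 stayed lowest in all 3 libraries. The control cells of both classes and the V1R difference at P10 entered the choice of the genes.

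In the P10 mutant each of the genes had a higher V1R level relative to the V2R level of the same library than in the control. The choice of the genes required the V1R difference at P10 and a control V1R level below the V2R level. This direction was therefore largely set in advance, and the share of all genes that have it was not counted. Among receptor-rich cells the V1R level as a share of the V2R level went from 0.0486 in the control to 0.484 in the P10 mutant for Gm36028 and from 0.0295 to 0.103 for Cnpy1. Smchd1 went from 0.411 (0.338 to 0.502) to 1.31 (1.06 to 1.63) and Rab3c from 0.730 (0.510 to 1.07) to 2.51 (1.82 to 3.53). Over all V1R and V2R cells of the P10 mutant the same share was 1.23 (1.05 to 1.44) for Smchd1 and 1.04 (0.852 to 1.28) for Rab3c, so Rab3c lay above the V2R level in the receptor-rich cells but not over all cells. The V2R cells of the P10 mutant with the most Rab3c, at 31 and 17 UMIs, had 9 and 12 receptor UMIs and so were not receptor-rich. They had 125 and 86 Gnai2 UMIs against 1 and 2 of Gnao1. Their part in the value over all cells was not tested. Among receptor-rich cells of the P10 mutant Dync1i1 reached 1.04 (0.755 to 1.45), Osbpl9 0.609, Stbd1 0.557, Pou2f1 0.336 and Apmap 0.274. At 3 months the value was 0.249 for Gm36028, 0.0298 for Cnpy1 and 0.872 (0.725 to 1.05) for Rab3c. These 3-month values lie below those of the P10 mutant, and in V2R cells Gm36028 and Rab3c were also higher at 3 months than at P10. Smchd1 stayed near equal, at 1.09 (0.731 to 1.65).

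**Figure D4:**
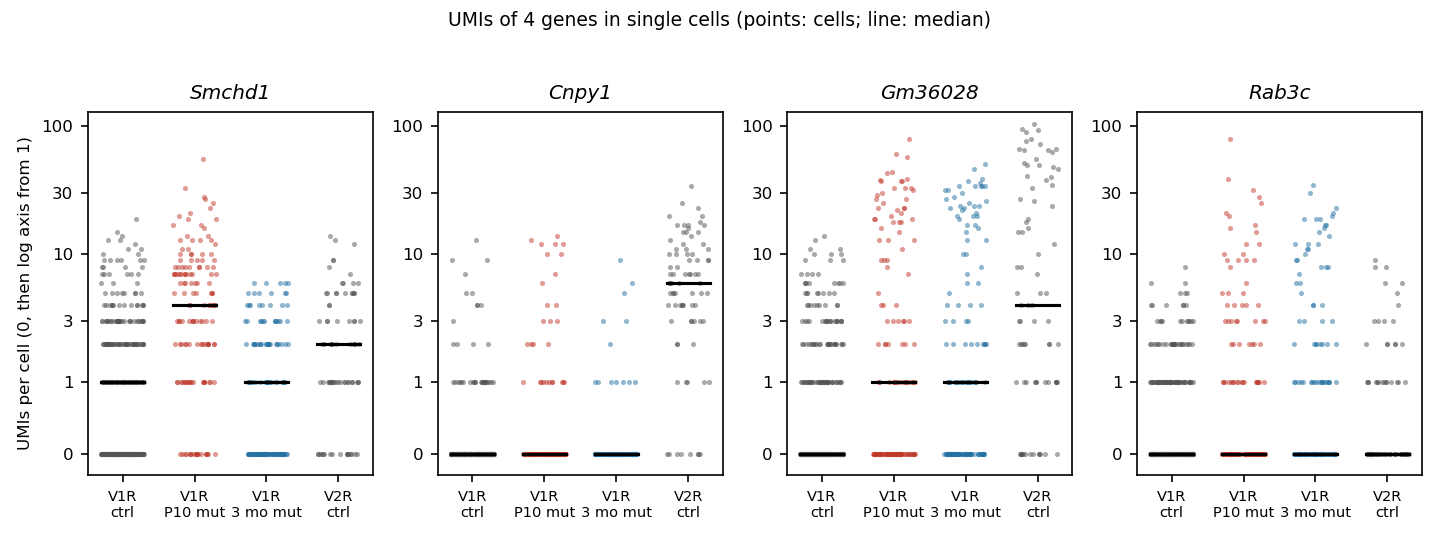
UMIs of Smchd1, Cnpy1, Gm36028 and Rab3c in single V1R cells of the 3 libraries and in control V2R cells, with 0 at the base and a log axis from 1; points are cells and lines are medians. The median of Smchd1 was 4 UMIs in V1R cells of the P10 mutant and 1 in the other V1R groups, whereas Cnpy1 and Rab3c had a median of 0 in all 3.

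The UMIs were spread over cells in different ways. Smchd1 was found in 125 of 144 V1R cells of the P10 mutant, against 204 of 360 in the control and 75 of 139 at 3 months, with medians of 4, 1 and 1 UMIs per cell and highest values of 55, 19 and 6. Most V1R cells of the P10 mutant thus held some of it. Gm36028 was found in 123, 78 and 79 V1R cells with highest values of 14, 80 and 51, and 14 of the 144 cells held 50% or more of its UMIs in the P10 mutant. Rab3c UMIs were in 106, 61 and 62 V1R cells with highest values of 8, 80 and 35, and 7 cells of the P10 mutant reached 50% of its UMIs. Cnpy1 was found in 37, 29 and 13 V1R cells, and 6, 6 and 3 cells reached 50% of its UMIs. The dispersion index, which is 1 when only counting error and cell depth vary, was 25.6 for Gm36028, 19.9 for Rab3c, 10.9 for Smchd1 and 8.31 for Cnpy1 in V1R cells of the P10 mutant, against 3.30, 2.34, 1.58 and 6.58 in the control. It was lowest for Dync1i1, at 2.53 in the P10 mutant and 1.20 at 3 months. Where cells vary beyond counting error, the index also rises with the mean UMIs per cell. V1R cells of the P10 mutant were deeper than those of the control and held more of these genes. The index therefore does not compare the relative spread between libraries or between genes.

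Since the libraries differ in depth, each cell was also thinned to 2000 UMIs, which left out 59, 7 and 36 shallower V1R cells. Gm36028 was then seen in 8.64% of V1R cells of the control (5.72 to 12.4), 31.4% of the P10 mutant (23.7 to 39.9) and 35.0% of the 3-month mutant (25.8 to 45.0), where the unthinned shares were 34.2%, 54.2% and 56.8%. Thinned shares here are those of 1 draw. Over 20 other draws Gm36028 ran from 8.64 to 12.3%, from 21.9 to 33.6% and from 33.0 to 45.6%. In immune cells, which have low levels of it, the unthinned shares were 0.853%, 1.12% and 0.596%. Smchd1 was seen in 13.6%, 29.9% and 15.5% of thinned V1R cells, with unthinned shares of 56.7%, 86.8% and 54.0% and immune shares of 57.8%, 58.1% and 52.8%. The unthinned V1R and immune shares were thus close in the control and at 3 months, although V1R cells were the deeper. Over the 20 other draws the thinned Smchd1 shares ran from 13.6 to 18.6%, from 29.2 to 39.4% and from 9.71 to 21.4%. A thinned V1R cell held UMIs of 1.14 of the 9 genes on average in the control, 1.94 in the P10 mutant and 1.98 at 3 months, and control V2R cells held 3.71.

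The cells with most UMIs of a gene were not alike in the control and the mutant. The V1R cell with most Cnpy1 in the control had 13 UMIs, 8 of Gnao1 and 0 of Gnai2, and 20 of its 47 receptor UMIs were of Vmn1r35. The top Cnpy1 cell of the P10 mutant had 14 UMIs, 79 of Gnai2, 0 of Gnao1, 14 of Tfap2e and 543 of Vmn1r27 among 582 receptor UMIs. That same Vmn1r27 cell had the most Pou2f1 (59 of the 291 UMIs over all V1R cells) and the most Stbd1 (138 UMIs), and Pou2f1 was at 55.9 CPM in the P10 mutant without its top cell. In V2R cells, too, Pou2f1 lay in few cells: a Vmn2r88 cell and a Vmn2r89 cell held 64 and 51 of the 267 UMIs in the control, and a Vmn2r89 cell and a Vmn2r88 cell held 53 and 36 of the 161 in the P10 mutant. In 1 Vmn1r78 cell of the P10 mutant, with 122 Gnai2 and 48 Tfap2e UMIs, were the most UMIs of both Rab3c (80) and Smchd1 (55). The top Gm36028 cell of the P10 mutant (80 UMIs, led by Vmn1r68) was instead the single V1R cell there with more Gnao1 (15) than Gnai2 (0).

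Because Cre was driven by Omp, V1R cells were divided by whether Omp UMIs exceeded Gap43 UMIs, which held for 126, 42 and 63 V1R cells. In those more mature cells Cnpy1 was at 5.54 CPM in control cells and 54.7 CPM in mutant cells of that age, a 9.88-fold difference (5.93 to 17.3), while in the remaining cells it was at 18.0 and 19.1 CPM, 1.06-fold (0.730 to 1.53). Gm36028 differed in both, 6.99-fold (6.10 to 8.04) in the more mature and 4.17-fold (3.39 to 5.16) in the remaining cells. Rab3c was 6.87-fold and 2.87-fold higher, Smchd1 3.58-fold and 2.05-fold, Osbpl9 2.39-fold and 1.27-fold, and Pou2f1 2.27-fold and 1.13-fold. Each of the 9 ratios was larger in the more mature cells. For the 3-month mutant over the control, 5 of the 9 genes were at least 2-fold higher in the more mature cells (Gm36028 6.91-fold and Rab3c 8.53-fold among them), where 5.09% of genes were, and 0 of the 9 in the remaining cells, where 9.6% were. In those 76 remaining cells of the 3-month mutant Gm36028 was at 1.41-fold (0.952 to 2.04) and Rab3c at 1.64-fold (1.10 to 2.41). The remaining cells include cells without a UMI of either gene, so they cannot be read as a less mature stage. Of all V1R cells, 201, 75 and 65 had an Omp UMI and 258, 109 and 39 a Gap43 UMI. No UMI of Omp, Gap43, Stmn2 or Ncam1 was found in 26, 0 and 23 V1R cells. Tfap2e was at 417 CPM in the more mature and 303 CPM in the remaining V1R cells of the P10 mutant.

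The link to Tfap2e within the mutants was described by cutting V1R cells of at least 2000 UMIs at their median Tfap2e CPM. Among 137 cells of the P10 mutant all 9 genes were higher in the upper group, and 7 of them at least 2-fold, from 4.08-fold for Gm36028 and 3.94-fold for Apmap to 2.24-fold for Osbpl9 and Cnpy1, where 13.7% of 11234 genes were. Without the single cell that held most UMIs of the gene, 6 of the 9 were, and Cnpy1 lay at 1.91-fold. Smchd1 had the smallest ratio, 1.59 (1.39 to 1.82). The upper and lower groups also differed in receptor level (11934 and 2391 CPM), in markers of other cell types (0.5 and 1.0% of UMIs) and in median mitochondrial share (4.4 and 7.1%). Among 80 receptor-rich cells, in which receptor levels were 14953 and 10560 CPM, 1 gene reached 2-fold, against 2.10% of genes, and that was Pou2f1 at 2.19 (1.61 to 3.00). The Vmn1r27 cell named above held 59 of the 142 Pou2f1 UMIs of the upper group, and without it the ratio was 1.32 (0.935 to 1.86). The others lay between 1.30 for Dync1i1 (0.978 to 1.74) and 1.82 for Rab3c (1.49 to 2.24). Without its own top cell Rab3c was at 1.35 (1.09 to 1.68). Smchd1 was then at 1.17 (0.980 to 1.40) and Cnpy1 at 1.25 (0.831 to 1.90). The intervals of the remaining members apart from Pou2f1 lay above 1. Spearman's rho with Tfap2e over those 80 cells, which share library, free RNA and depth range, had a median of 0.31 over the 9 genes and ran from -0.10 for Pou2f1 to 0.34. Among V1R cells with at most 5% mitochondrial UMIs, 5 of the 9 genes were higher in the upper group and 0 were at least 2-fold higher, where 3.77% of genes were.

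**Figure D5:**
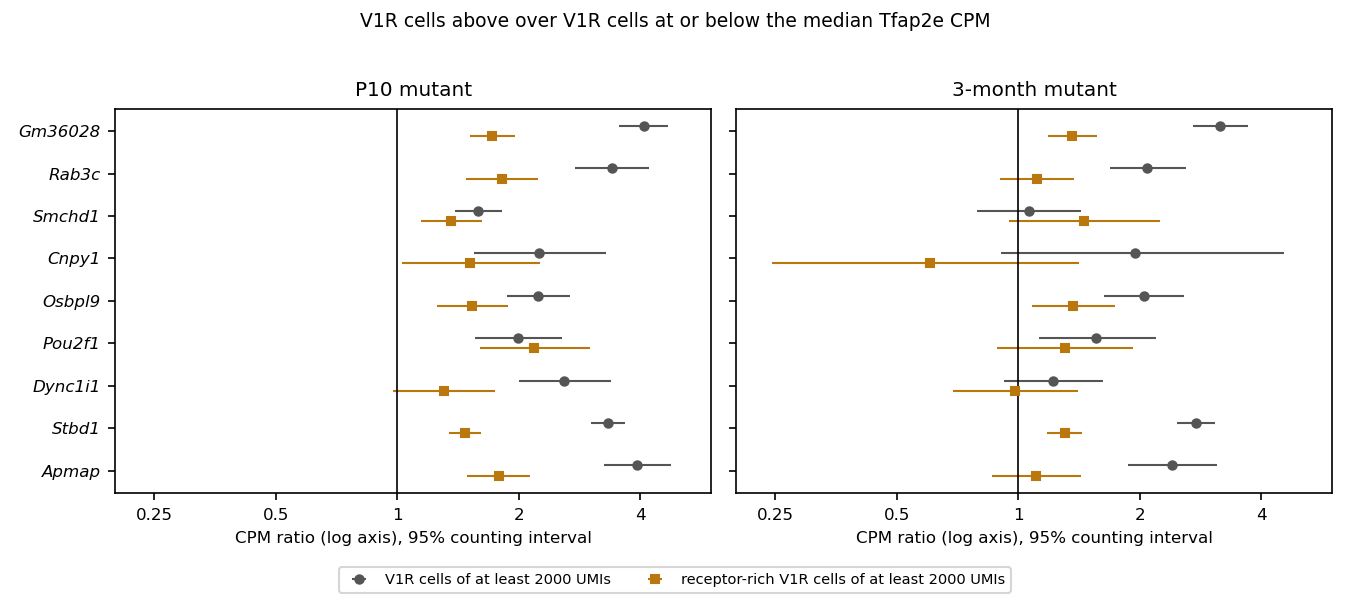
Ratio of pooled CPM in V1R cells above the median Tfap2e CPM over those at or below it, on a log axis with 95% counting intervals, in the P10 mutant (left) and the 3-month mutant (right). In the P10 mutant Gm36028 was at 4.08 over all V1R cells and at 1.72 over receptor-rich cells.

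In the 3-month mutant 5 of the 9 genes were at least 2-fold higher in the upper group of 103 cells, namely Gm36028 (3.17-fold), Stbd1 (2.76-fold), Apmap (2.40-fold), Rab3c (2.09-fold) and Osbpl9 (2.05-fold), where 10.8% of 9979 genes were. Without the top cell of each gene 3 of the 9 were, with Rab3c at 1.92-fold and Osbpl9 at 1.95-fold. Among 50 receptor-rich cells the count was 0, against 4.31% of genes, with ratios from 0.605 (0.246 to 1.42) for Cnpy1 to 1.45 (0.947 to 2.25) for Smchd1 and Gm36028 at 1.36 (1.19 to 1.57). The part of receptor level and cell quality in the link was not tested further.

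Among genes with at least 20 UMIs, no relative of the 9 genes in their family lists was at least 2-fold higher in V1R cells of the P10 mutant, where 2.91% of all 13369 such genes were. At that share few relatives would be, so the count says little about them. Cnpy2, Cnpy3 and Cnpy4 were at 0.988-, 0.988- and 1.20-fold, and Rab3a, Rab3b and Rab3d at 0.692-, 0.816- and 0.834-fold. Pou2f2 was at 0.569-fold and Dync1i2, the paralogue of Dync1i1, at 0.892-fold. The other 7 genes of the SMC list lay between 0.745-fold for Smc3 and 1.14-fold for Lrif1, a partner of Smchd1. The 12 genes of the oxysterol-binding family, Osbpl9 included, had a median log2 ratio of 0.05, and over all genes it was -0.01. Of the 10 genes of the glycogen list, Gbe1 (1.52-fold), Pygl (1.37-fold) and Pygb (1.39-fold) had intervals above 1 beside Stbd1, and 1 gene had an interval below 1. In receptor-rich cells 2 genes of that list had intervals above 1 and 0 below. Of the 10 dynein subunits 3 had intervals above 1, Dync1i1 among them, and 6 below 1. In receptor-rich cells 4 were above and 2 below. The share of all genes with such intervals was not counted. The adipocyte list beside Apmap had 1 gene with 20 UMIs or more, Cebpa, at 0.762-fold (0.518 to 1.10).

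Of the 10 other known genes of the basal type on the list, 7 had at least 20 UMIs, 0 of which were at least 2-fold higher over all V1R cells of the P10 mutant, against 2.91% of all genes, with Gnao1 at 1.84-fold (1.57 to 2.14), Calr4 at 1.24-fold (1.16 to 1.33) and Robo2 at 0.965-fold (0.671 to 1.37). H2-M10.3, a class I molecule of basal cells, had 1 UMI in V1R cells of the P10 mutant and 41 in those of the control, the latter in 3 of the 360 cells. In receptor-rich cells 1 of the 7 did, Gnao1 at 2.56-fold (2.15 to 3.04). All 8 genes of the apical list lay below 1 over all V1R cells, from 0.102-fold for Nqo1 and 0.290-fold for Nsg1 to 0.802-fold for Gng8, but in receptor-rich cells Gng8 (1.01-fold) and Ncam2 (1.03-fold) did not. Not every listed gene followed its list in the control. Gng8 was at 772 CPM in V1R and 1223 CPM in V2R cells, so it was not apical here. Keap1 of the basal list was at 40.6 and 34.8 CPM, so it was not higher in V2R cells.

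The genes whose levels over the 6 pools of library and class were most like the median profile of the 9 were Dusp15, Kctd7, Reps2, Dio3os and Optn, by Euclidean distance of centred log2(CPM + 10) among 12460 genes (distances of 0.45 to 0.61). Dio3os, for example, was at 1.71, 14.1 and 17.0 CPM in V1R cells and at 23.9, 29.3 and 39.1 CPM in V2R cells. Of the members themselves Osbpl9 lay closest to that profile, at 0.19, and Cnpy1 farthest, at 3.20. Over receptor-rich cells Reps2, Kctd7 and Dusp15 were again among the 5 nearest, with Fkbp2 and Itm2b in place of the others.

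Outside the V1R and V2R cells the genes differed in how widely they were found. In immune cells Cnpy1, Gm36028 and Rab3c stood at 2.01 CPM or less in each library. Osbpl9 was at 51.1 to 63.9 CPM there, against 79.6 CPM in control V1R cells. In the less mature neurons with fewer than 5 receptor UMIs (166, 87 and 33 cells), Gm36028 was at 36.4, 82.6 and 34.8 CPM and Rab3c at 44.5, 31.9 and 136 CPM. Cnpy1 was higher in those cells than in V1R cells, at 76.6, 70.3 and 24.1 CPM.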

How the data were processed

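Single-cell suspensions of whole VNO were dissociated with papain, frozen and made into 10x 3' libraries. The authors deposited raw UMI counts per gene and barcode for each library. Per the file headers these came from Cell Ranger 4.0.0 (control and P10 mutant) or 6.0.1 (3-month mutant), and the submitters' processing notes give Cell Ranger 4.0.0, Seurat 3.2.3 and mm10. The study's methods name limits of 200 to 9000 genes and 5% mitochondrial genes without giving them separately for the P10 libraries; here the mitochondrial limit was 10%, and 5% was an alternative.

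UMIs of a gene were summed over the cells of a class and divided by all their UMIs (CPM). Because there was 1 library per group, no test, p-value or SE was computed. Genes counted in a background share had at least 20 UMIs over both pools. Cells were thinned to 2000 UMIs with a fixed seed. No doublet caller was run and free RNA was not subtracted. Total UMIs were 83870584, 80760046 and 70074800. Marker lists of other cell types held 44 genes in 8 lists. The members, lists and named genes (the 9 members, the members of their family lists and the 5 nearest profiles) were chosen with earlier results of these data known. Receptor-rich cells, cells split by G protein cells above 10% mitochondrial UMIs and the removal of a gene's top cell were alternatives chosen after seeing the data. The other alternatives were the mitochondrial limit, receptor purity and minimum, cells with an Omp UMI, the mean of per-cell CPM and removal of the deepest cells. Coordinates came from GENCODE M21 (GRCm38), which held 32158 of the 32285 genes, and promoters from RefSeq (GRCm38.p6). The counting and interval code was checked on simulated counts. Python 3.11.15, numpy 2.4.6, scipy 1.17.1, pandas 2.3.3 and matplotlib 3.10.9 were used.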

Additional observations from a re-analysis of the deposited data

Results flagged for a closer look

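In the P10 mutant 7 of the 9 genes lay above the control in V1R cells and below it in V2R cells, each class being 1 library against 1, and the difference between the classes was not tested. The choice of the genes required the V1R direction. It also used a high level in control V2R cells, which is the denominator of the V2R ratio. The share of all genes with this pattern was not counted, so the count of 7 is a description only. For 5 of the 7 both counting intervals left out 1. The log2 ratios of the mutant over the control were 1.35 in V1R and -0.35 in V2R cells for Cnpy1, 2.40 and -0.55 for Gm36028, 0.58 and -0.31 for Pou2f1, 0.33 and -0.54 for Apmap, and 0.49 and -0.57 for Dync1i1. In V2R cells with more Gnao1 than Gnai2 UMIs the log2 ratio was 0.18 for Cnpy1, 0.46 for Pou2f1 and 0.01 for Apmap, so these did not lie below the control there.

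V1R barcodes above 10% mitochondrial UMIs, which entered none of the main comparisons, still gave a ratio of 3.06 for Gm36028 between the P10 mutant and the control.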

How the results depend on the processing

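Each comparison was 1 library against 1, so all limits below concern sizes only. No paired analysis was possible because no group had more than 1 library. The count of genes at least 2-fold higher in V1R cells of the P10 mutant, 4 of 9, was 2 in cells with 5 to 10% mitochondrial UMIs and 1 above 10%, 3 in cells without more Omp than Gap43 UMIs, and 4 to 6 under the other alternatives. The share of all genes was 2.91% in the main cells. It was 2.80% at 5 to 10%, 3.57% above 10% and 3.03% without more Omp than Gap43 UMIs. Above 10% the log2 ratio was -0.61 for Cnpy1, -0.65 for Rab3c, -0.25 for Osbpl9, -0.31 for Stbd1 and -0.35 for Dync1i1, and at 5 to 10% it was -0.0051 for Apmap. Between the mutants, the 3-month count at or below 0.5-fold, 2 of 9, was 3 at or below 5% mitochondrial UMIs, 1 at 5 to 10%, where Apmap was at 0.69, and 5 in cells without more Omp than Gap43 UMIs. The share of all genes was 7.48% in the main cells. In these alternatives it was 15.1%, 7.21% and 15.1%, in the same order. At or below 5%, Gm36028 was at -0.23, Rab3c at -0.052, Stbd1 at -0.082 and Dync1i1 at -0.27, and Dync1i1 was at -0.34 as a mean over cells and at -0.12 both in receptor-rich cells and without cells rich in other markers. Against the control, the 3-month count of 2 was 4 at 5 to 10% mitochondrial UMIs, 5 with at least 10 receptor UMIs, 6 in cells with an Omp UMI, 5 in cells with more Omp than Gap43 UMIs and 0 in the remaining cells, and Pou2f1 was at -0.024 at 95% purity. In V2R cells at P10, Cnpy1 was at 0.0034 and Dync1i1 at 0.062 at or below 5% mitochondrial UMIs. Pou2f1 was at 0.23 at 5 to 10%, 0.13 at 95% purity, 0.14 with at least 10 receptor UMIs and 0.29 in receptor-rich cells, and cells with more Gnao1 than Gnai2 gave 0.18 for Cnpy1, 0.46 for Pou2f1 and 0.0054 for Apmap. The 7 genes at least 2-fold higher above the median Tfap2e level were 1 in cells with an Omp UMI, 0 at or below 5% mitochondrial UMIs and 1 in receptor-rich cells. The share of all genes was 13.7% in the main cells and 5.88%, 3.77% and 2.10% in these alternatives. In the comparison of V2R with V1R cells of the control, 6 genes were at least 2-fold higher in cells with more Omp than Gap43 UMIs, where Pou2f1 was at 0.893-fold (0.435 to 1.65), 6 above 10% mitochondrial UMIs, and 7 to 9 under the other alternatives, in which no member changed direction. The share of all genes was 4.78% in the main cells, 6.16% with more Omp than Gap43 UMIs and 15.1% above 10% mitochondrial UMIs. The causes were not tested.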
